A study of Mus musculus with 2 samples.

Results

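The cells described here were naive cDC2s that the authors' unsupervised clustering of mRNA placed in cluster 1. Their number was 536 of the 2024 naive cDC2s with an mRNA cluster label (26.5%, 95% exact Clopper-Pearson interval 24.6 to 28.5), of 3471 naive cells with expression values and of 11067 cells in both libraries. They were taken by the deposited cluster label alone and were set beside the other 1488 labelled naive cDC2s, which fell into clusters 2 to 7 with 432, 432, 273, 246, 55 and 50 cells.

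The data came from CITEseq, in which each cell is read both for mRNA and for antibodies that carry a DNA barcode. Live MHCIIhi CD11c+ B220- cells were sorted from lymph nodes that drain the skin of B6 mice. There was 1 library of unimmunized (naive) mice and 1 library of mice given OVA with the protease papain in both rear footpads 1 day earlier. By the study's methods only popliteal nodes went into the papain library, whereas several skin-draining nodes were pooled for the naive library, so node site and immunization cannot be told apart. Cluster 1 lies in the naive library, and the papain library enters only where its clusters are named.

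Conventional type 2 dendritic cells (cDC2s) are antigen-presenting cells that carry CD172a (SIRPα) and depend in part on the transcription factor IRF4. Those of the skin take up antigen in the dermis, switch on CCR7 and travel through lymphatics to the draining node, where they present peptides on MHC class II to CD4+ T cells. A large share of dermal cDC2s carries the C-type lectin CD301b, which is encoded by Mgl2.

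With 1 library there was no replicate, and the clusters had been drawn from the same mRNA that is compared below, so the mRNA differences are descriptions without a test. Levels of mRNA are CPM, a gene's unique molecular identifiers (UMIs) added up across all cells in the group, per 1000000 UMIs. Ratios are log2 of CPM with 1 added to both groups. A gene counted as higher or lower at 1.5-fold or more, provided that the larger of both levels reached 10 CPM. All 95% intervals cover counting error only.

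Cells of cluster 1 were deep. They had a median of 18800 UMIs (8696 to 50632) and 3645 detected genes, against 12801 UMIs and 2886 genes in the other labelled cells. Cluster medians ran from 5929 UMIs in cluster 6 to 20541 in cluster 7, and cluster 5 had 18848. Shares of cells with a UMI are therefore also given after thinning to 8355 UMIs, a depth that all 536 cells reached. Cells below that depth were left out, which kept 1285 of the 1488 other labelled cells and 314 of 440 LCs (Langerhans cells). Of cluster 3, 309 of 432 cells were kept, and of cluster 6 only 4 of 55, so thinned shares of the other labelled cells hardly cover cluster 6. A UMI of Cd3e or Trac, which encode parts of the T cell receptor complex, was present in 3.73% of cluster 1 cells and in 56% of cluster 7 cells. The naive and papain libraries shared 2 cell barcodes, and both of these cells were in cluster 1.

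The label cDC2 had been given by antibodies, CD172a, XCR1 and CD326 among them, and all 2024 labelled cells carry it, so the values of these antibodies describe the selection. The CD172a antibody value of cluster 1 had a median of 1.73 (quartiles 1.48 and 1.98), against 0.123 in cDC1s and 0.751 in Langerhans cells (LCs) of the same library. XCR1, the surface marker of cDC1s, had a median of 0.102 against 1.26 in cDC1s, and CD326, which marks LCs, had 0.464 against 3.42 in LCs. Of 8 mRNA markers of cDC2s, Sirpa (114 CPM), Irf4 (57.4 CPM), Klf4 (114 CPM) and Zeb2 (282 CPM) were present in cluster 1. The other 4, which were Itgam, Mgl2, Clec10a and Cd209a, were all at 2.35 CPM or less. Part of the cDC2 markers was thus nearly absent at the mRNA level. The 8 markers of cDC1s summed to 540 CPM, above the 327 to 521 CPM of the other 6 clusters and below the 883 CPM of cDC1s. Nearly all of this was Irf8 and Batf3 (311 and 213 CPM), transcription factors that other cells also use, while Xcr1 and Clec9a, which define cDC1s, had 1.60 and 0.941 CPM. Markers of T cells summed to 10.5 CPM, of NK cells to 5.55 CPM and of B cells to 19.6 CPM over the cluster, and those of monocytes and macrophages to 62.7 CPM. The 4 Langerhans cell markers other than Mfge8 ranged from 0 to 4.71 CPM, and Mfge8, which encodes a bridging protein for dying cells, stood at 129 CPM in cluster 1 and 657 CPM in LCs.

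Antibodies were read through barcodes of 15 bases. Those of CD301b, CD11b and CD24 are shown in lower case, from 5′ to 3′, as the feature list gives them.
CD301b: cttgccttgcgattt
CD11b: tatatctttgccgca
CD24: tatatctttgccgca
The list gives CD11b and CD24 the same barcode. Counts of these antibodies kept a median ratio of 1.09 to 1.25 in all 7 clusters, and neither is read as a marker here.

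Cluster 1 was the cluster with the most CD301b on the surface, by a measurement that had no part in its making. The CD301b antibody value, the natural logarithm of 1 plus the count plus 1 over the geometric mean of the antibodies in the cell, had a median of 1.75 (quartiles 1.08 and 2.26). Clusters 6 and 2 followed with 1.61 and 1.60, and their quartiles overlapped those of cluster 1 almost entirely. Cluster 3 had 1.11, cluster 5 had 0.527, cluster 4 had 0.425 and cluster 7 had 0.287. In cDC1s and LCs, which lack CD301b, the medians were 0.0579 and 0.118.

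By the authors' antibody classes, 286 of the 536 cells were CD301b-high (53.4%, 49.0 to 57.6), 180 were CD301b-intermediate (33.6%, 29.6 to 37.8) and 70 were CD301b-low (13.1%, 10.3 to 16.2). The CD301b-high share was 47.7% (42.9 to 52.5) in cluster 2 and 47.3% (33.7 to 61.2) in cluster 6, whose intervals overlap that of cluster 1. It was 26.4% in cluster 3, 15.9% in cluster 5, 11.7% in cluster 4 and 8% in cluster 7, all with intervals below that of cluster 1. Read the other way, cluster 1 held 40.5% (36.8 to 44.2) of the 707 labelled CD301b-high cDC2s, 27.3% (23.9 to 30.9) of the intermediate cells and 10.6% (8.39 to 13.2) of the CD301b-low cells. Cluster 1 was thus rich in CD301b-high cells without being made up of them.

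The transcript for CD301b did not follow the protein. Mgl2 had 20 UMIs in all of cluster 1, in 6 cells, with 15 of them in a single cell, which gave 1.88 CPM (1.15 to 2.91). Among the 286 CD301b-high cells of the cluster there were 2 Mgl2 UMIs (0.356 CPM, 0.0431 to 1.29). Cluster 5, with far less CD301b on its cells, had 276 CPM, and its 39 CD301b-high cells had 703 CPM (650 to 760). Clusters 2, 3, 4 and 7 had from 0.534 to 1.41 CPM, and cluster 6 had 33.3 CPM. A Mgl2 UMI was found in 1.12% of cluster 1 cells, below the 2.25% of cDC1s and 1.59% of LCs, which is the level of background. Against all other labelled cells Mgl2 was lower, with a log2 ratio of -4.57, but with cluster 5 left out the ratio was 0.18.

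**Figure D1:**
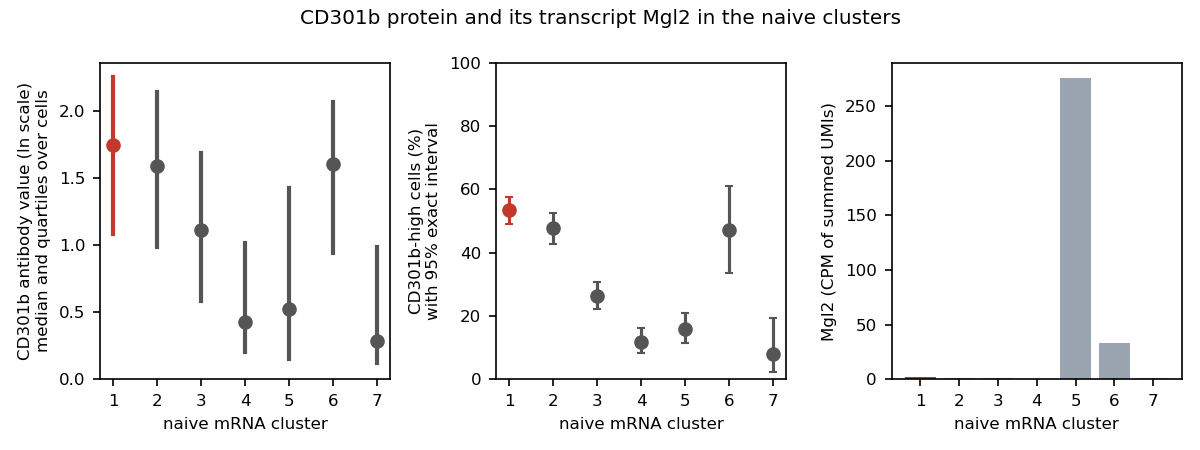
CD301b by naive mRNA cluster. Left, median and quartiles over cells of the CD301b antibody value (natural log scale); middle, share of CD301b-high cells with its 95% exact interval; right, Mgl2 in CPM of summed UMIs. Cluster 1 (red) has the highest antibody median, 1.75, and 1.88 CPM of Mgl2, whereas cluster 5 has 0.527 and 276 CPM.

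Clusters 2 and 6, which were near cluster 1 in CD301b, differed from each other in further surface proteins. CD11c, an integrin of dendritic cells, had a median of 2.67 (quartiles 2.14 and 3.16) in cluster 1 and 1.36 (0.989 and 1.85) in cluster 2, so the middle ranges of cells did not overlap. Clusters 5 and 6 had 3.65 and 2.87. CD8a had a median of 0.337 in cluster 1, 0.979 in cluster 2 and 0.316 in cluster 6. The MHC class II antibody had a median of 5.29 in cluster 1, with rank 5 of the 7 clusters, which ranged from 4.76 in cluster 7 to 5.79 in cluster 3. Antibody counts per cell had a median of 9259 in cluster 1 and 7268 in the other labelled cells.

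Among mRNAs, 334 of the 7387 genes with at least 10 CPM were higher in cluster 1 than in the other labelled cells (4.52%) and 482 were lower (6.52%). The median log2 ratio of all these genes was 0.02. At 2-fold there were 73 higher (0.988%) and 230 lower (3.11%). Of the 334 higher genes, 136 (40.7%) had their highest level of all 7 clusters in cluster 1, and 164 (49.1%) had it in cluster 6. Of the 482 lower genes, 279 (57.9%) had their highest level in cluster 5 and 121 (25.1%) in cluster 7. Most of the lower genes thus peaked in clusters that hold 246 and 50 of the 1488 cells. With cluster 5 left out of the comparison, the balance turned, with 441 of 7223 genes higher (6.11%) and 263 lower (3.64%). These included 68.9% of the 334 higher and 33.8% of the 482 lower genes.

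Both chemokines that bind CCR4 were among the 15 genes highest in cluster 1. Ccl17 had 701 CPM (685 to 717) in cluster 1. Clusters 2 to 7 had 175, 87.2, 269, 63.8, 503 and 291 CPM, so cluster 1 was highest, at 1.39-fold the level of cluster 6. Against all other labelled cells the log2 ratio was 2.14. Ccl22 had 3154 CPM (3120 to 3188) in cluster 1, and clusters 2 to 7 had 1491, 658, 1064, 264, 5544 and 1120 CPM. It was therefore second to cluster 6, the 55-cell cluster of low depth, with a log2 ratio of 1.67 against all other cells. Both chemokines draw CCR4-bearing T cells.

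Most cells of the cluster contributed to these levels, but unevenly. Ccl22 UMIs were present in 520 cells (97%) and Ccl17 UMIs in 434 (81%). After thinning, the Ccl17 share was 69.7% in cluster 1, 28.5% in the other labelled cells and 39.5% in LCs. The level of Ccl17 per cell had quartiles of 52.7 and 722 CPM around a median of 228 CPM and reached 10655 CPM, and 27 cells held 37.2% of its UMIs. Of the 434 cells with Ccl17, 430 also held Ccl22 (99.1%), against 90 of the 102 cells without Ccl17 (88.2%).

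Ccl22 and Ccl17 are neighbours on chromosome 8 of GRCm38, with 57992 bases between them, and both are protein-coding. Their promoter windows from RefSeq (GRCm38.p6, plus strand, 250 bases before and 50 after the transcript start that its promoter table uses) are shown because both genes are among the 15 highest. For Ccl17 that start lies inside the gene's span, chr8:94809380-94812038, which was used for the distance. Capitals mark matches to an NF-kB pattern, GGG and CC with any 5 bases between them, on either strand.
Ccl22, chr8:94745434-94745733: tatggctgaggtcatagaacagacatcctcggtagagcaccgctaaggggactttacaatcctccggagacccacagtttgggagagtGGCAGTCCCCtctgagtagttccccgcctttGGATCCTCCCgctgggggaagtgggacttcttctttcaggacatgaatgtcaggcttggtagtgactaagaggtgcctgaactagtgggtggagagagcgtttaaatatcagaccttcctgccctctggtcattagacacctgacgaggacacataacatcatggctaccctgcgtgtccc
Ccl17, chr8:94810203-94810502: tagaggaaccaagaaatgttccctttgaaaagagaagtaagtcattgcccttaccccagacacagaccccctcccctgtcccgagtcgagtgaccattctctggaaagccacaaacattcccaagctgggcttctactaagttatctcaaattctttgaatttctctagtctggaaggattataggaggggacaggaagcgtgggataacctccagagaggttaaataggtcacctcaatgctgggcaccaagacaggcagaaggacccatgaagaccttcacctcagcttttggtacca
The pattern matched 2 times in the Ccl22 window and was not found in the Ccl17 window. It is short and occurs in 50.8% of the 32851 promoter windows. Of the 15 genes highest in cluster 1, 11 had windows, and the pattern occurs in 9 of these 12 windows. Of the 15 lowest, 10 had windows, and it occurs in 6 of these 11. So few windows cannot show a difference, and none was tested.

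Aldh1a2 was the gene that stood furthest above every other naive cluster. It encodes retinaldehyde dehydrogenase 2, which makes retinoic acid. Its level was 125 CPM (119 to 132) in cluster 1 and 16.2, 24.6, 53.2, 48.3, 60.6 and 27.5 CPM in clusters 2 to 7, a ratio of 2.05 to the next highest. It was at 6.53 CPM in cDC1s and 7.53 CPM in LCs. UMIs were in 278 cells (51.9%), or 39.7% after thinning, against 13.8% of the other labelled cells and 2.92% of LCs. Cells with and without Ccl17 held Aldh1a2 in like shares, 51.4% and 53.9%, so within cluster 1 these genes did not mark the same cells. In the 9 papain clusters Aldh1a2 ranged from 4.35 to 38.7 CPM, all below naive cluster 1.

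The other genes of the 15 highest fell into a few groups. The serpins Serpinb9b (80.8 against 14.4 CPM), Serpinb1a (239 against 79.6 CPM) and Serpinb6b (955 against 378 CPM) are members of a family of protease inhibitors on chromosome 13, and reads of such paralogs may be split uncertainly. Vim, an intermediate filament, had 3962 CPM against 1536, and the annexin-binding S100a10 and its partner Anxa2 had 424 against 154 and 626 against 263 CPM. Rhoc, a small GTPase of the cytoskeleton, and F11r, a junctional adhesion molecule, had 52.8 against 19.4 and 74.9 against 24.4 CPM. Sod3, an extracellular superoxide dismutase, and Blvrb, a biliverdin reductase, had 71.5 against 16.7 and 55.4 against 21.8 CPM. Ebi3, a subunit shared by heterodimeric cytokines, had 84.3 against 34.5 CPM. Not all of these genes were highest in cluster 1. Cluster 6 had more Serpinb9b (218 CPM), F11r (173 CPM), Rhoc (96.9 CPM) and Anxa2 (1106 CPM). Serpinb6b had 966 CPM in cluster 6 and S100a10 had 433 CPM in cluster 7, both near the level of cluster 1. Serpinb1a, Vim, Sod3, Blvrb and Ebi3 were above each other naive cluster. Cst3, the protease inhibitor cystatin C, was also above each other naive cluster, with 4208 CPM against 1287 to 3057.

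Mucl1 had the largest log2 ratio, 3.47, but it was a feature of few cells. Its 108.5 CPM in cluster 1 came from 39 cells (7.28%), and a single cell held 31.8% of the UMIs. RefSeq lists it as a transcribed pseudogene. Cluster 6 had 221 CPM and cluster 7 had 72.7 CPM.

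**Figure D2:**
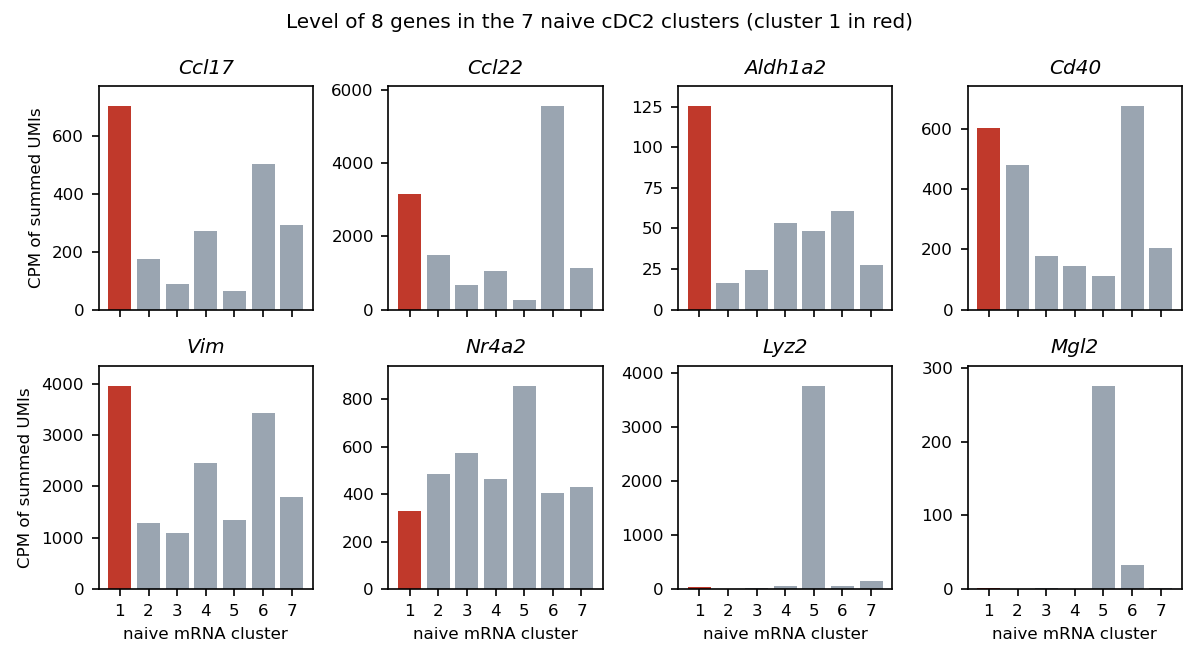
Levels of 8 genes in the 7 naive clusters, in CPM of summed UMIs on linear axes that start at 0, with cluster 1 in red. Ccl17, Aldh1a2 and Vim are highest in cluster 1, Ccl22 and Cd40 are higher in cluster 6, Nr4a2 is lowest in cluster 1, and Lyz2 and Mgl2 are found mainly in cluster 5.

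The 15 lowest genes had their highest level in cluster 5, except Ly6e. They were Cd209a, Mmp12, Plaur, Lyz2, Lyz1, Mgl2, Ccr2, Plbd1, Cd209d, Alox5ap, Gm2a, Ly6e, Egr3, Ccl4 and Stap1. Lyz2, a lysozyme of myeloid cells, had 31.0 CPM in cluster 1 and 9.96, 24.6, 58.2, 3763, 57.6 and 147 CPM in clusters 2 to 7. Cd209a, a C-type lectin of cDC2s and monocyte-derived cells, had 0.471 CPM in cluster 1 and 257 CPM in cluster 5. Ccr2, the receptor through which monocytes leave the bone marrow, had 2.54 CPM in cluster 1 against 219 in cluster 5. Ly6e, a surface protein of lymphocytes and other cells, had 8.85 CPM in cluster 1, 171 CPM in cluster 5 and 429 CPM in cluster 7. With cluster 5 left out of the comparison, only Lyz2, Gm2a, Ly6e, Ccl4 and Stap1 of the 15 still reached 10 CPM on either side. Of these, only Ly6e counted as lower (log2 ratio -1.60), and the chemokine Ccl4 counted as higher (2.05). The rest, among them Mmp12, a matrix metalloproteinase, and Cd209d, then had less than 10 CPM on both sides and could not be called. Reads of Lyz1 and Lyz2, and of Cd209a and Cd209d, may likewise be split uncertainly.

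Some genes were at their lowest of all 7 clusters in cluster 1. Nr4a2, an orphan nuclear receptor switched on by acute signals, had 331 CPM (320 to 342), and the other clusters ranged from 403 to 856 CPM. Crem, a cyclic AMP-responsive factor, had 44.5 CPM against 67.3 to 215, and Hmgn1, a nucleosome-binding protein, had 55.6 CPM against 66.7 to 127. Wdr89 had 2665 CPM against 3192 to 3593, and Gm37531 had 52.4 CPM against 72.7 to 118. Immediate early genes lay in the same direction. Of 19 tested, 0 were higher and 11 lower, against 6.52% of all genes lower, with a median log2 ratio of -0.68. Fos had 492 against 1009 CPM and Btg2, a growth-arrest gene, 462 against 850. With cluster 5 left out, 3 of 17 were lower, against 3.64% of all genes, and the median was -0.24.

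MHC class II genes were lower as a group, and this too depended on cluster 5. All 9 tested were lower, against 6.52% of all genes, with a median log2 ratio of -1.67. H2-Ab1 had 928 CPM in cluster 1, against 1312, 697, 527, 9317, 1948 and 918 CPM in clusters 2 to 7, which placed cluster 1 in the middle of them. Cd74, the invariant chain, had 6205 CPM, against 9871 in cluster 2, 3427 in cluster 4 and 22808 in cluster 5. Without cluster 5, 1 of the 9 was lower, against 3.64% of all genes, and the median was -0.06. Against cluster 4 alone, 5 of 8 were higher (12.8% of all genes tested) and the median was 0.68. Of the 9 genes of MHC class I presentation, 0 were higher or lower, and the median was 0.29.

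Genes of migration and maturation were shared with most other clusters. Ccr7, the receptor for entry into the node, had 3916 CPM in cluster 1 and from 2754 to 5029 CPM in the others, apart from cluster 5 with 1389. Fscn1, the actin bundler of mature dendritic cells, had 2454 CPM, close to the 2426 of cluster 2, against 410 in cluster 5. Of the 15 genes tested, 4 were higher and 0 lower, beside 4.52% and 6.52% of all genes, with a median of 0.15. Those 4 were Fscn1, Socs2, Serpinb6b and Pdcd1lg2, the last of which encodes the ligand PD-L2 and had 16.8 against 7.91 CPM. Without cluster 5 only Serpinb6b and Pdcd1lg2 still counted as higher, beside 6.11% of all genes, and the median was -0.035.

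Cd40, the receptor through which T cells signal to dendritic cells, was among the higher genes. It had 605 CPM (590 to 620) in cluster 1 and 479, 178, 144, 113, 676 and 206 CPM in clusters 2 to 7. The log2 ratio against all other cells was 1.23, and 0.99 without cluster 5. UMIs were in 511 cells (95.3%), and in 88.7% after thinning against 59.4% of the other labelled cells. Of the 9 costimulation genes tested, Cd40 and Cd70 were higher and 0 were lower, and without cluster 5 there were 4 higher and 1 lower. The shares over all genes were 4.52% and 6.52%, or 6.11% and 3.64% without cluster 5. Cd80 had 63.1 against 61.8 CPM and Cd86 had 138 against 150 CPM. Among 18 genes of CD40 and NF-kB signalling only Bcl2l1, which encodes the survival protein Bcl-xL, was higher, with 75.8 against 40.1 CPM. Nfkb2, Rela and Nfkbia had log2 ratios from 0.21 to 0.23.

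Il2 was near the limit of what this depth can show. It had 37 UMIs in 36 cells of cluster 1, or 3.48 CPM (2.45 to 4.80), against 4.03 CPM in the other labelled cells and 3.28 to 6.06 CPM in the single clusters. After thinning, 2.99% of cluster 1 cells and 3.13% of the others held a UMI, and a difference was not detectable. cDC1s had 3.37 CPM. Il2ra (CD25) had 56.7 against 59.9 CPM and Il2rg, the common cytokine receptor chain, 81.6 against 99.8 CPM. Il2rb, the chain for signalling, had 1.32 CPM in cluster 1 and 288 CPM in cluster 7, whose cells often held T cell receptor UMIs.

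The chemokine list turned in sign with cluster 5. Against all other labelled cells, 2 of 12 were higher and 6 lower, beside 4.52% and 6.52% of all genes, with a median of -0.39. Without cluster 5, 6 of 10 were higher and 1 was lower, beside 6.11% and 3.64% of all genes. The median was then 1.43, while the median of all genes was 0.04. Ccl9, a ligand of CCR1, had 121 CPM in cluster 1, 331 in cluster 5, 136 in cluster 6 and at most 27.8 in clusters 2, 3, 4 and 7. Ccl3, Ccl4 and Ccl6 had 21.7, 24.5 and 33.6 CPM in cluster 1 and 203, 562 and 283 CPM in cluster 5. Cxcl10, an interferon-induced chemokine, was lower with and without cluster 5, with 30.2 against 60.0 CPM.

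Genes of survival and death were mostly even or higher. Of 10 tested, 5 were higher and 0 lower, with a median of 0.56, or 4 of 10 and 0.37 without cluster 5. Of all genes, 4.52% were higher and 6.52% lower, and 6.11% were higher without cluster 5. Bcl2a1d and Bcl2a1b, paralogs whose reads may be split uncertainly, had 1793 against 1071 and 992 against 622 CPM. Cflar, an inhibitor of caspase 8, had 559 against 352 CPM and was under 1.5-fold without cluster 5. Bak1, which promotes death at the mitochondrion, was also higher, with 63.6 against 37.5 CPM. Bcl2l1, given above, completed them. Bax and Mcl1 had log2 ratios of -0.02 and 0.16. Against cluster 2 alone, 1 of 10 was higher, beside 12.1% of all genes, and the median of 0.12 was that of all genes. Against cluster 4 alone, 4 of 10 were higher, beside 12.8% of all genes, with a median of 0.37.

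Smaller groups differed in few genes, set here beside 4.52% of all genes higher and 6.52% lower (6.11% and 3.64% without cluster 5). Of 8 interferon-stimulated genes, 3 were higher, which were Isg15 (58.0 against 30.7 CPM), Usp18 (64.9 against 33.9 CPM) and Gbp2 (163 against 92.0 CPM), and 0 were lower. Of 20 transcription factors, Irf8 and Irf1 were higher, with 311 against 164 and 397 against 242 CPM, and Klf4, Runx3 and Spib were lower. Without cluster 5, 0 of the 20 were lower, and Irf8 (log2 ratio 0.73) and Irf5 (0.89) were higher while Irf1 was at 0.47. Of 9 cytokines, Ebi3 and Csf1 were higher and Tgfb1 and Il1b lower. Without cluster 5, 4 of 9 were higher, which were Ebi3, Csf1, Tnf and Il6, and 0 were lower. Il1b had 435 CPM, against 2111 in cluster 5 and 149 to 577 in the other clusters. Of 12 genes of cholesterol metabolism, 0 were higher and 1, Apoe, was lower. Against cluster 4 alone, 10 of them were higher, beside 12.8% of all genes. Heat shock genes, often read as a sign of handling, gave 0 higher and 1 lower of 11.

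**Figure D3:**
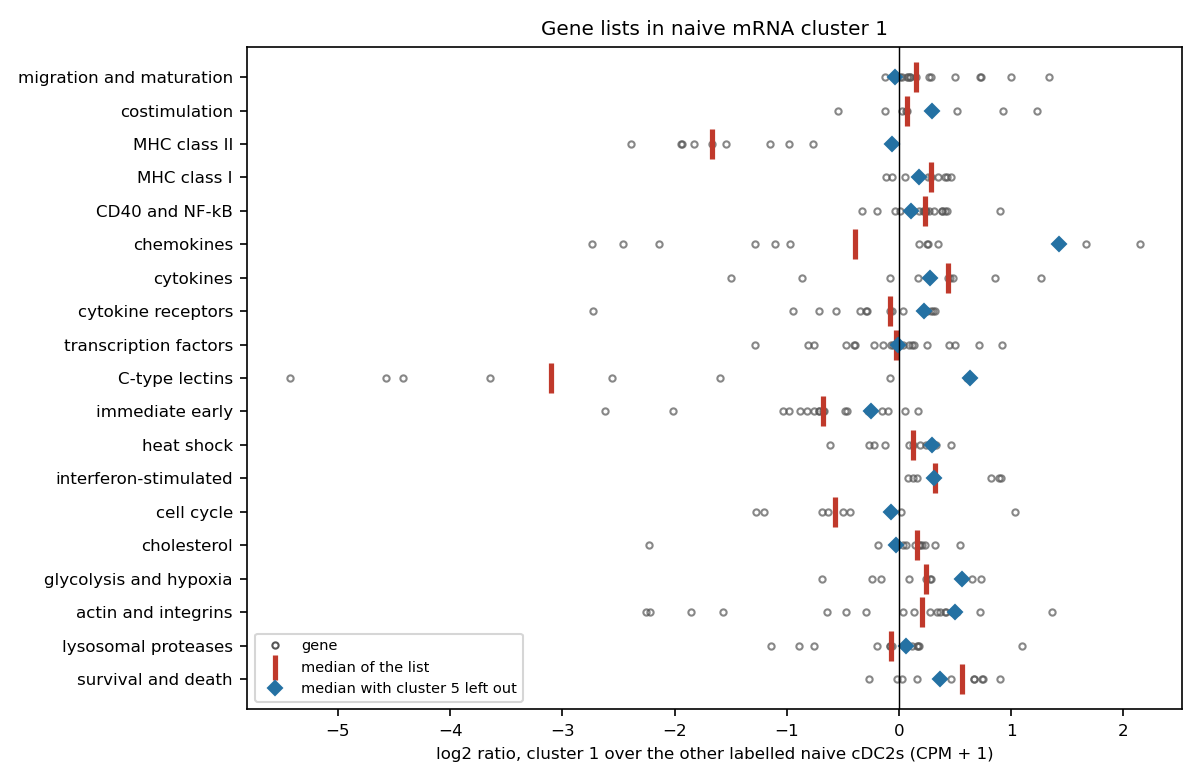
Log2 ratio of cluster 1 over the other labelled naive cDC2s for each tested gene (circles) of 19 lists, with the list's median (red bar) and its median when cluster 5 is left out of the comparison (blue diamond). The MHC class II median is -1.67 and moves to -0.06, the chemokine median moves from -0.39 to 1.43, and the survival median moves from 0.56 to 0.37.

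The naive clusters most like cluster 1 were clusters 4 and 2, with Pearson correlations of 0.968 each over 9678 genes. These correlations are across genes, which are not independent, and cells of all naive clusters came from the same library. Cluster 3 followed with 0.956, and clusters 6, 5 and 7 had 0.878, 0.859 and 0.834. Between clusters 4 and 2, Spearman's rho was 0.959 and 0.960, and Pearson's r over the 2000 most variable genes was 0.940 and 0.919. Of the papain clusters, cluster 5 (0.975) and cluster 1 (0.973) came highest, above each other naive cluster. Over the 2000 most variable genes papain cluster 1 had 0.943, but papain cluster 5, with 0.939, was just below naive cluster 4. The groups differed widely in cells and median UMIs. Papain clusters 5 and 1 had 560 cells at 30021 UMIs and 1430 cells at 18323 UMIs. Naive clusters 4 and 6 had 273 cells at 13210 UMIs and 55 cells at 5929 UMIs. How far group size and depth set the order of the correlations was not tested. Papain clusters 5 and 1 had 65.7% and 61.9% CD301b-high cells, 816 and 1296 CPM of Ccl17, and 23.0 and 38.7 CPM of Aldh1a2.

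Set beside clusters 2 and 4 in turn, cluster 1 had more genes higher than lower, while MHC class II went in opposite directions. Against cluster 2, 859 of 7106 genes were higher (12.1%) and 305 lower (4.29%), with a median log2 ratio of 0.12, and cluster 2 cells had 14059 UMIs in the median. Chemokines were higher in 7 of 10 and glycolysis genes in 8 of 9, with a median of 0.90, while 3 of 9 MHC class II genes were lower. Against cluster 4, 934 of 7309 genes were higher (12.8%) and 486 lower (6.65%). There genes of CD40 and NF-kB signalling were higher in 8 of 18, actin and integrin genes in 11 of 15, and cholesterol genes in 10 of 12. Against cluster 5 the differences were the most numerous, with 1413 of 7833 genes higher (18%) and 1716 lower (21.9%). Migration and maturation genes were higher in 13 of 15 with a median of 1.49, and all 9 MHC class II genes were lower with a median of -3.33.

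The leading genes were higher in cluster 1 within each CD301b class as well. Among CD301b-high cells alone, Ccl17 had 675 CPM inside cluster 1 and 168 CPM outside it, 4.02-fold (3.75 to 4.32). Among CD301b-low cells it had 1086 CPM inside and 138 CPM outside, 7.87-fold (7.27 to 8.52). Aldh1a2 was 4.16-fold higher inside cluster 1 in CD301b-high cells and 2.73-fold in CD301b-low cells. For Cd40 these ratios were 1.73 and 3.09, and for Vim they were 2.59 and 2.64. H2-Ab1 was lower inside the cluster in each class, at 0.493, 0.270 and 0.281 of the outside level in high, intermediate and low cells. The outside cells included cluster 5, which had 39, 64 and 143 cells in these classes and 9317 CPM of H2-Ab1. Over all classes without cluster 5, H2-Ab1 had 928 CPM inside cluster 1 and 943 CPM outside it (log2 ratio -0.02). Whether H2-Ab1 was lower within each class without cluster 5 was not tested.

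Within cluster 1, CD301b-high cells were set against CD301b-low cells, a split made by antibodies and not by mRNA. Of 7392 genes, 427 were higher in CD301b-high cells (5.78%) and 628 lower (8.5%). The 70 CD301b-low cells limit the precision, and the median depths were 18839 and 17570 UMIs. Ehf, an ETS transcription factor better known from epithelia, had 280 CPM in CD301b-high and 85.5 CPM in CD301b-low cells, 3.28-fold (2.71 to 3.99). Ehf was also highest of all naive clusters in cluster 1, at 225 CPM. Prdm1 (Blimp-1) had 55.3 against 16.9 CPM, Wdtc1 54.8 against 17.7, Blvrb 67.1 against 28.7, and Il1b 596 against 245 CPM. In the labelled cells outside cluster 1, CD301b-high cells also had more Ehf (185 against 68.4 CPM) and Il1b (977 against 714 CPM). These directions were thus not particular to cluster 1.

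CD301b-low cells of the cluster had higher levels of Ccnd2 and of several costimulation genes. Ccnd2, a D-type cyclin, had 129 CPM in them and 23.3 CPM in CD301b-high cells, a log2 ratio of -2.42. Crispld2, Grasp, Gm4739 and Tcf7 had 61.9 against 13.7, 109 against 29.9, 71.5 against 19.4 and 63.4 against 20.6 CPM. Of 9 costimulation genes, 5 were lower in CD301b-high cells and 0 higher, beside 8.5% and 5.78% of all genes. These were Cd80 (47.0 against 122 CPM), Cd86 (114 against 186 CPM), Icosl, Cd70 and Tnfsf4. Cd70 and Tnfsf4 reached 10 CPM only in CD301b-low cells. Cd40 went the other way without passing 1.5-fold, with 673 CPM in CD301b-high and 487 CPM in CD301b-low cells. Of 9 cell cycle genes, 6 were lower in CD301b-high cells. Top2a, Ccnb2, Birc5, Mcm6 and Stmn1 among them reached 10 CPM only in CD301b-low cells, so they were tested only because of their level there. Hmgb2 had 39.7 CPM in CD301b-high and 83.3 CPM in CD301b-low cells, and Mki67 had 94.8 and 86.2 CPM. Ccl17 was lower in CD301b-high cells, at 0.622-fold (0.585 to 0.661), whereas Ccl22 was near even at 0.886-fold. In the labelled cells outside cluster 1, CD301b-low cells likewise had more Cd80 (83.0 against 44.7 CPM) and Cd86 (181 against 132 CPM). There Ccnd2 had 39.1 against 24.0 CPM, while Ccl17 went the other way with 138 against 168 CPM. The directions of Cd80, Cd86 and Ccnd2 were thus not particular to cluster 1.

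**Figure D4:**
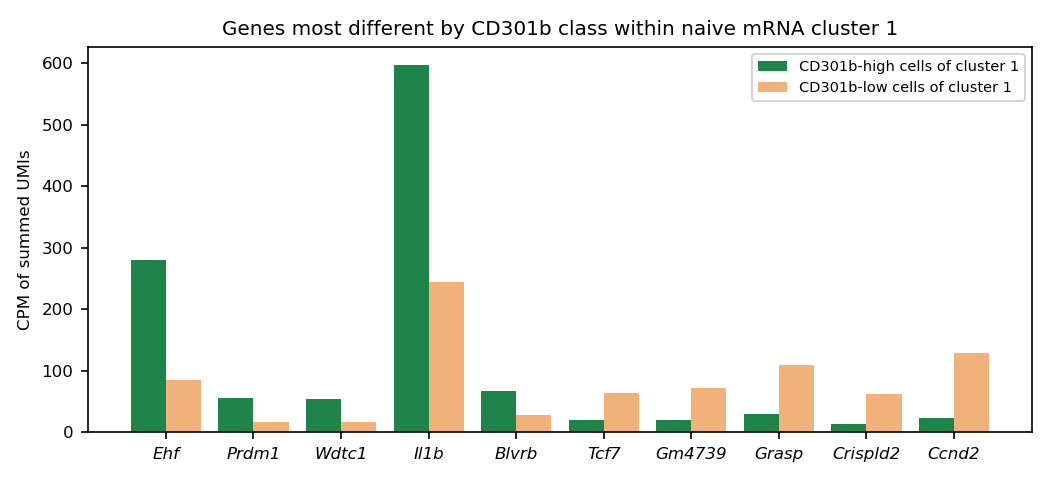
Levels in CPM of summed UMIs in the 286 CD301b-high (green) and 70 CD301b-low (orange) cells of cluster 1, for 10 genes, 5 at each end of the ratios. Il1b has 596 against 245 CPM and Ehf 280 against 85.5 CPM, and Ccnd2 has 23.3 against 129 CPM.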

How the data were processed

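Single-cell values of 1 naive and 1 papain library were used. The authors aligned reads to mm10 with Cell Ranger 3.0.1 and used Partek. Per cell, the authors deposited expression as log2 of CPM plus 1, from which UMI counts were recovered through the step that 1 UMI makes (100% of values up to 50 UMIs were whole within 0.02). The deposited antibody values are natural log values, and the deposited antibody totals are counts. The deposited total of the expression data, a score, and the deposited mitochondrial percent were not used.

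UMIs were summed over the cells of a cluster or class. Groups were set by the authors' mRNA cluster label and antibody class. With 1 library per condition no test was made and no p-value is given. Intervals are exact Clopper-Pearson for shares, exact Poisson for CPM and conditional binomial for ratios. Genes named were the 15 highest and 15 lowest with at least 50 CPM, the 5 most above and below every other cluster, the 5 each way within cluster 1, the study's genes and members of 29 lists. Of 324 list genes, 316 are listed and the rest are not analysed here. The members and lists were chosen with earlier results of these data known. No doublet caller was run, and doublets were not removed. Alternatives changed the pseudocount, filters, cell sets, thinning and comparison group. Scripts were tested on simulated data, with Python 3.11.15, numpy 2.4.6, pandas 2.3.3 and scipy 1.17.1.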

Additional observations from a re-analysis of the deposited data

How the results depend on the processing

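No paired analysis was possible because there is 1 library per condition and the labels give no replicate numbers. Of 917 alternative values for 115 results, 643 stayed the same, 261 moved and 13 reversed. Moved means a change beyond the counting interval or, for numbers of genes, beyond 1.5-fold, and for antibody ranks any change. Reversed means that a ratio or median of at least 1.5-fold changed sign. Medians under 1.5-fold that changed sign without cluster 5 included those of chemokines (1.43) and of migration and maturation (-0.035). The counts of genes higher and lower in cluster 1, 334 and 482, became 193 and 288 with a pseudocount of 10 CPM, 161 and 120 with at least 50 CPM, 645 and 1749 with no filter on level, and 73 and 230 at 2-fold. With cluster 5 left out, an alternative chosen after seeing the data like that without cluster 7, 441 were higher and 263 lower. Thinning gave 424 and 411. Within cluster 1, the counts of 427 and 628 became 150 and 232 with a pseudocount of 10 CPM, and 218 and 334 between upper and lower tertiles of the CD301b antibody value. Of all naive cells with expression values, cluster 1 was 15.4%. Leaving out cluster 5 reversed the medians of markers of cDC2s (0.10), cDC1s (0.28), monocytes and macrophages (0.55) and of C-type lectins (0.64), and the log2 ratios of Mgl2 (0.18), Cd209d (0.72), Alox5ap (0.12), Gm2a (0.29), Egr3 (0.45), Ccl4 (2.05) and Il1b (0.21). Those 4 medians then covered 4, 2, 2 and 3 tested genes, against 8, 4, 7 and 8 with cluster 5, so they are over different genes. Mgl2, Cd209d, Alox5ap and Egr3 then had less than 10 CPM on both sides. Weighting the other clusters equally reversed the median of cDC1 markers (0.13) and the ratio of Ccnd2 (-0.039). The CD301b-high share stayed between 51.9% and 53.9% under 4 alternatives.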

Other observations

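Mki67, the usual marker of cycling cells, had 86.9 CPM in cluster 1, above each other naive cluster, which ranged from 15.8 to 66.1 CPM. A UMI was present in 264 of the 536 cells (49.3%, 44.9 to 53.6), and in 35.2% after thinning against 16.0% of the other labelled cells and 6.26% of LCs. Of the 8 cell cycle genes tested, Mki67 was higher and 4 were lower, beside 4.52% and 6.52% of all genes. Top2a, which is expressed when cells divide, had 6.68 against 17.5 CPM. With cluster 5 left out, Mki67 was higher and 0 of the 6 genes tested were lower, beside 6.11% and 3.64% of all genes. Top2a then had 6.68 against 7.95 CPM. Of the 264 cells with Mki67, 21 (7.95%, 4.99 to 11.9) also held Top2a, against 18 of the 272 cells without it (6.62%, 3.97 to 10.3). In cluster 5, 20 of the 64 cells with Mki67 (31.2%, 20.2 to 44.1) held Top2a, against 21 of 182 without it (11.5%, 7.29 to 17.1). The cells with Mki67 in cluster 1 had a median of 19444 UMIs and those without had 17966. In the papain library Mki67 reached 131 CPM in cluster 1 and 116 CPM in cluster 5, the clusters most like naive cluster 1.

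Itgax, which encodes CD11c, followed the antibody in part. It had 58.5 CPM in cluster 1, against 11.2 in cluster 2, 12.2 in cluster 3, 30.2 in cluster 4, 325 in cluster 5 and 81.8 in cluster 6, and the CD11c antibody medians of clusters 5, 6 and 1 were also the 3 highest. Psap, which encodes a lysosomal protein, had 718 CPM in cluster 1, 229 to 320 in clusters 2, 3, 4 and 7, and 1236 and 1736 in clusters 6 and 5.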
